A study of Mus musculus with 6 samples.

Results

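GM-BMM and M-BMM are macrophage populations grown from mouse bone marrow under different growth factors, and their RNA was compared across all 19938 genes that the array annotation pairs with at least 1 probe set of their own. Where a gene had several such probe sets, the brightest on average across the 6 arrays of the series stood for it. The marrow came from C57BL/6J mice, labelled male and 6 to 10 weeks old, and was cultured for 7 days. GM-BMM were grown in GM-CSF (granulocyte-macrophage colony-stimulating factor) at 25 ng/ml and sorted as MHCIIlowF4/80high cells. M-BMM were grown with 20% of medium conditioned by L cells, which secrete M-CSF (macrophage colony-stimulating factor), and sorted as CD11b+F4/80+ cells. Each population was measured on 2 arrays, with 300 ng of total RNA per array. A further 2 arrays held GM-BMDC, the MHCIIhighF4/80low cells of GM-CSF cultures, and entered the shared estimate of the spread. The labels call the replicates biological but do not name the animals or cultures behind them, so p-values measure the spread between arrays. Growth factor, the rest of the conditioned medium and the sort gate differed together between the populations and cannot be told apart. In sorted bulk RNA, fewer cells with a transcript and less of it per cell cannot be told apart either.

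M-CSF and GM-CSF act through unrelated receptors. M-CSF binds the receptor tyrosine kinase encoded by Csf1r and maintains most tissue macrophages. GM-CSF binds an alpha chain (Csf2ra) that pairs with a common beta chain (Csf2rb) and signals through JAK2 and STAT5, and it is known for its part in the development of the macrophages of the lung alveoli, which depend on the nuclear receptor PPARγ, and for the growth of dendritic cells and inflammatory macrophages in culture.

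Transcripts of the macrophage antigens named in the sort gates, F4/80 and CD11b, were high in both populations. The gates selected for F4/80 in both populations and for CD11b in M-BMM, so these levels do not test macrophage identity. Values are RMA levels, which are log2 intensities after background correction and quantile normalisation. Adgre1, which encodes the F4/80 antigen, read 12.32 and 12.61 against 12.73 and 12.79 in the 2 GM-BMM arrays and the 2 M-BMM arrays, in that order, and Itgam (CD11b) read 11.81 and 11.77 against 11.87 and 11.84; below, levels are given in the same order. Neither gene passed the test (adjusted p = 0.797 and 0.951). Of macrophage genes outside the gates, Cd68 read 12.49 and 12.48 against 12.14 and 12.14. Mertk read 10.84 and 10.32 against 10.52 and 10.28, and Lyz2 13.31 and 13.24 against 13.27 and 13.28. Aif1 was lower in GM-BMM, at 6.87 and 8.83 against 9.65 and 9.48. None of these passed either. Of the full list of 31 shared macrophage genes, described below, 4 rose and 1 fell. Cd14 was among those that rose, at 11.45 and 11.57 against 9.83 and 9.87 (3.16-fold, adjusted p = 0.00286). GM-BMM replicate 1 and both GM-BMDC arrays went against the labelled sex. GM-BMM replicate 1 had an Xist level of 11.58 and levels of 3.66 for Eif2s3y and 3.58 for Uty, both on the Y chromosome, whereas GM-BMM replicate 2 read 4.93, 9.10 and 8.68. The M-BMM arrays read 4.53 and 4.80 for Xist, 9.32 and 9.17 for Eif2s3y and 8.93 and 8.84 for Uty. Kdm5d, a further Y-linked gene, read 4.68 and 7.64 against 8.04 and 7.91. The GM-BMDC arrays read 11.66 and 10.68 for Xist, 3.94 and 8.80 for Eif2s3y and 3.98 and 8.17 for Uty, so that replicate 1 had little Y-linked RNA and replicate 2 had both Xist and Y-linked RNA. Counts below are therefore also given without GM-BMM replicate 1 where that moves them by more than 1.5 times.

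In GM-BMM, 722 genes were higher and 513 genes were lower than in M-BMM, together 6.19% of the genes tested (3.62% higher and 2.57% lower; limma, Benjamini-Hochberg adjusted p under 0.05, written below as passing the test). The shares of 3.62% and 2.57% are the background beside which every list count below stands. The arrays of the populations did not overlap for any of these 1235 genes, and they did not overlap for 49.8% of all genes. Of the higher genes 426 were at least 2-fold, 154 at least 4-fold and 65 at least 8-fold higher, against 177, 43 and 11 among the lower genes. The median log2 difference was 1.13 among the higher genes, -0.81 among the lower genes and -0.02 over all genes. The smallest difference that passed was 1.37-fold, and 125 of the 728 genes with a difference of 2-fold or more did not pass. Without GM-BMM replicate 1 the counts were 561 higher and 279 lower, of which 468 and 236 also passed with all arrays. Without M-BMM replicate 1 they were 249 and 92, and without M-BMM replicate 2 they were 217 and 102. With each of the 6 arrays left out in turn, 202 higher and 79 lower genes kept their call every time; below, such calls are said to have held throughout. Where a value is given without either array of a group, 1 array was left out at a time and both fits gave that value as printed. Without both GM-CSF arrays numbered 1, that is GM-BMM replicate 1 and GM-BMDC replicate 1, 974 genes were higher and 600 lower, of which 649 and 388 also passed with all arrays; the spread in that fit came from the M-BMM arrays alone. In 8 genes named below that passed, both arrays of the lower population lay below the 25th percentile of all values (5.04). These were Csn1s1, Cd209f, C1s1, Cxcl5, Itga1, Tnfsf18, Mir99a and Mirlet7c-1, and their folds rest on low signal. No detection calls were used here.

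**Figure D1:**
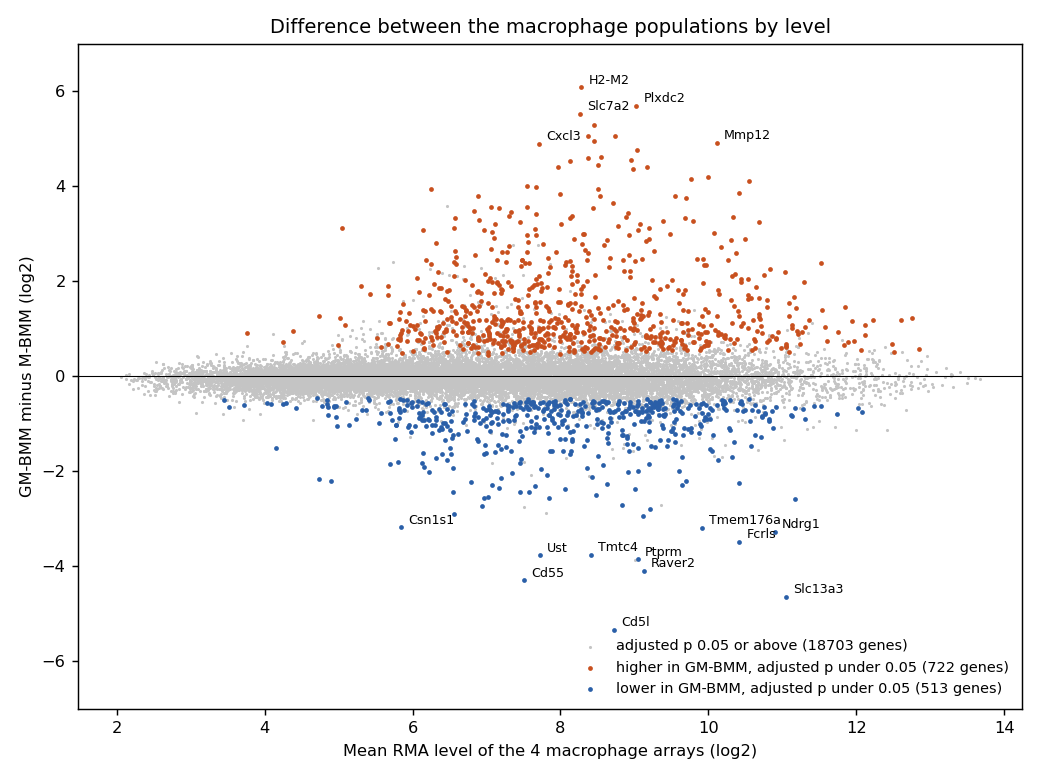
Each point is 1 of 19938 genes, placed by its mean RMA level over the 4 macrophage arrays (x axis, log2) and by GM-BMM minus M-BMM (y axis, log2), with the genes that passed the test coloured and some of the largest differences named. The differences run from 6.09 for H2-M2 to -5.34 for Cd5l.

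The largest increase was that of H2-M2, a class Ib relative of the class I antigen-presenting molecules. Its levels were 11.15 and 11.51 in the GM-BMM arrays and 5.59 and 4.88 in the M-BMM arrays, a 68.2-fold difference (log2 6.09, SE 0.28, adjusted p = 4.73e-05). Plxdc2, a membrane protein with a plexin-like domain, read 12.15 and 11.60 against 6.19 and 6.15 (52.1-fold, adjusted p = 2.17e-05). Slc7a2, a carrier of arginine and other cationic amino acids, read 11.11 and 10.96 against 5.56 and 5.44 (46.4-fold, adjusted p = 1.11e-05). For these 3 genes both GM-BMM arrays lay far above the array medians, which were 6.18 to 6.28, and no M-BMM array did. Acpp, an acid phosphatase, was 33.3-fold higher (11.28 and 11.24 against 6.31 and 6.09). Inhba, the subunit of activin A, was 33.5-fold higher (11.47 and 10.35 against 5.98 and 5.70). Susd2, a membrane protein with a sushi domain, was 31.1-fold higher (10.55 and 11.33 against 5.95 and 6.01), and it was low in GM-BMDC as well (6.58 and 6.38; GM-BMDC minus GM-BMM log2 -4.46, adjusted p = 9.54e-05). The other genes among the 12 largest increases were Mmp12, the macrophage elastase (30.3-fold), Cxcl3, a chemokine for neutrophils (29.7-fold), Fn1, fibronectin (27.1-fold), the class II genes H2-Aa and H2-Ab1, described with the class II genes, and Klk1b11. Klk1b11 belongs to a cluster of near-identical kallikrein genes that probes may not separate, and its GM-BMM arrays lay apart (12.34 and 9.86 against 5.91 and 5.70; 39.2-fold). Klk1b11 did not pass without M-BMM replicate 1 (adjusted p = 0.0631) or replicate 2 (0.0739). Klk1b11 had a log2 difference of 4.05 without GM-BMM replicate 1 and 6.53 without replicate 2, against 5.29 with all arrays. The other 11 calls held throughout. GM-BMDC lay near or above GM-BMM for H2-M2 and Plxdc2 (means 11.29 and 12.29) and for Mmp12 and Fn1 (12.85 and 11.82). It lay above GM-BMM for Klk1b11 and H2-Ab1 (13.08 and 13.13). For Slc7a2, Inhba, Acpp and Cxcl3 the GM-BMDC means were 9.01, 9.41, 9.46 and 6.90, between M-BMM and GM-BMM.

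**Figure D2:**
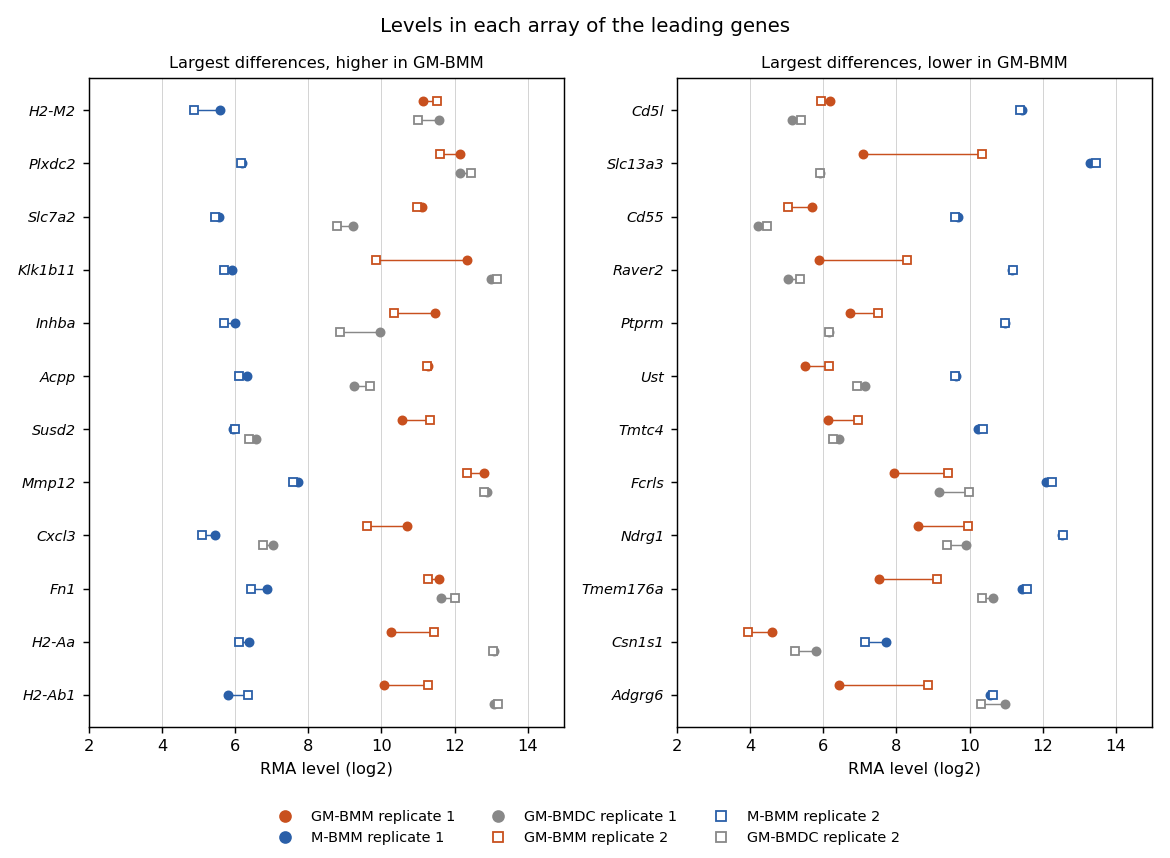
RMA level (x axis, log2) in every array of the 12 genes with the largest increase and the 12 with the largest decrease in GM-BMM. Filled circles are replicate 1 and open squares replicate 2. Only genes whose arrays do not overlap between GM-BMM and M-BMM were chosen, and Slc13a3, Raver2 and Adgrg6 have GM-BMM arrays far apart.

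Cd5l, a secreted protein of tissue macrophages that binds lipids and inhibits apoptosis, had the largest decrease. It read 6.19 and 5.93 in the GM-BMM arrays and 11.42 and 11.37 in the M-BMM arrays, 40.4-fold lower (log2 -5.34, SE 0.14, adjusted p = 8.72e-06). Cd55, which protects cells from complement, was 19.6-fold lower (5.69 and 5.03 against 9.69 and 9.61, adjusted p = 7.33e-05). Ptprm, a receptor tyrosine phosphatase, was 14.4-fold lower (6.74 and 7.50 against 10.97 and 10.96). In each case the M-BMM arrays agreed closely and both GM-BMM arrays lay more than 3 log2 units below them. Ust, a sulfotransferase of glycosaminoglycans, was 13.6-fold lower (5.51 and 6.16 against 9.62 and 9.59). Tmtc4, a mannosyltransferase, was 13.5-fold lower, and Csn1s1, a casein, was 9.05-fold lower. These 6 calls held throughout.

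Other large decreases came with GM-BMM arrays that differed from each other. Slc13a3, a carrier of dicarboxylates, read 7.10 and 10.35 against 13.29 and 13.45 (25.1-fold lower, adjusted p = 0.0212), and Raver2, an RNA-binding protein, read 5.87 and 8.28 against 11.16 and 11.18 (17.0-fold lower, adjusted p = 0.0109). In both, GM-BMM replicate 2 lay between replicate 1 and M-BMM. Fcrls, a scavenger receptor related to Fc receptors, read 7.94 and 9.42 against 12.08 and 12.25. Ndrg1, a stress-responsive gene, read 8.58 and 9.94 against 12.53 and 12.55, and Tmem176a, an intracellular membrane protein, read 7.51 and 9.12 against 11.43 and 11.58. These show the same order of arrays. Adgrg6, an adhesion receptor, passed narrowly (6.43 and 8.87 against 10.55 and 10.63, adjusted p = 0.0474). Slc13a3, Raver2, Fcrls, Ndrg1 and Tmem176a did not pass without M-BMM replicate 1 (adjusted p = 0.16, 0.119, 0.069, 0.0592 and 0.0804) or replicate 2 (0.184, 0.121, 0.0831, 0.0629 and 0.0915). Adgrg6 did not pass without M-BMM replicate 1 (adjusted p = 0.25), replicate 2 (0.262) or either GM-BMDC array (0.0634). Slc13a3, Raver2, Fcrls, Ndrg1, Tmem176a and Adgrg6 had a log2 difference of -3.02, -2.89, -2.75, -2.59, -2.38 and -1.72 without GM-BMM replicate 1 and -6.27, -5.29, -4.22, -3.96, -3.99 and -4.16 without replicate 2, against -4.65, -4.09, -3.49, -3.27, -3.19 and -2.94 with all arrays.

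**Figure D3:**
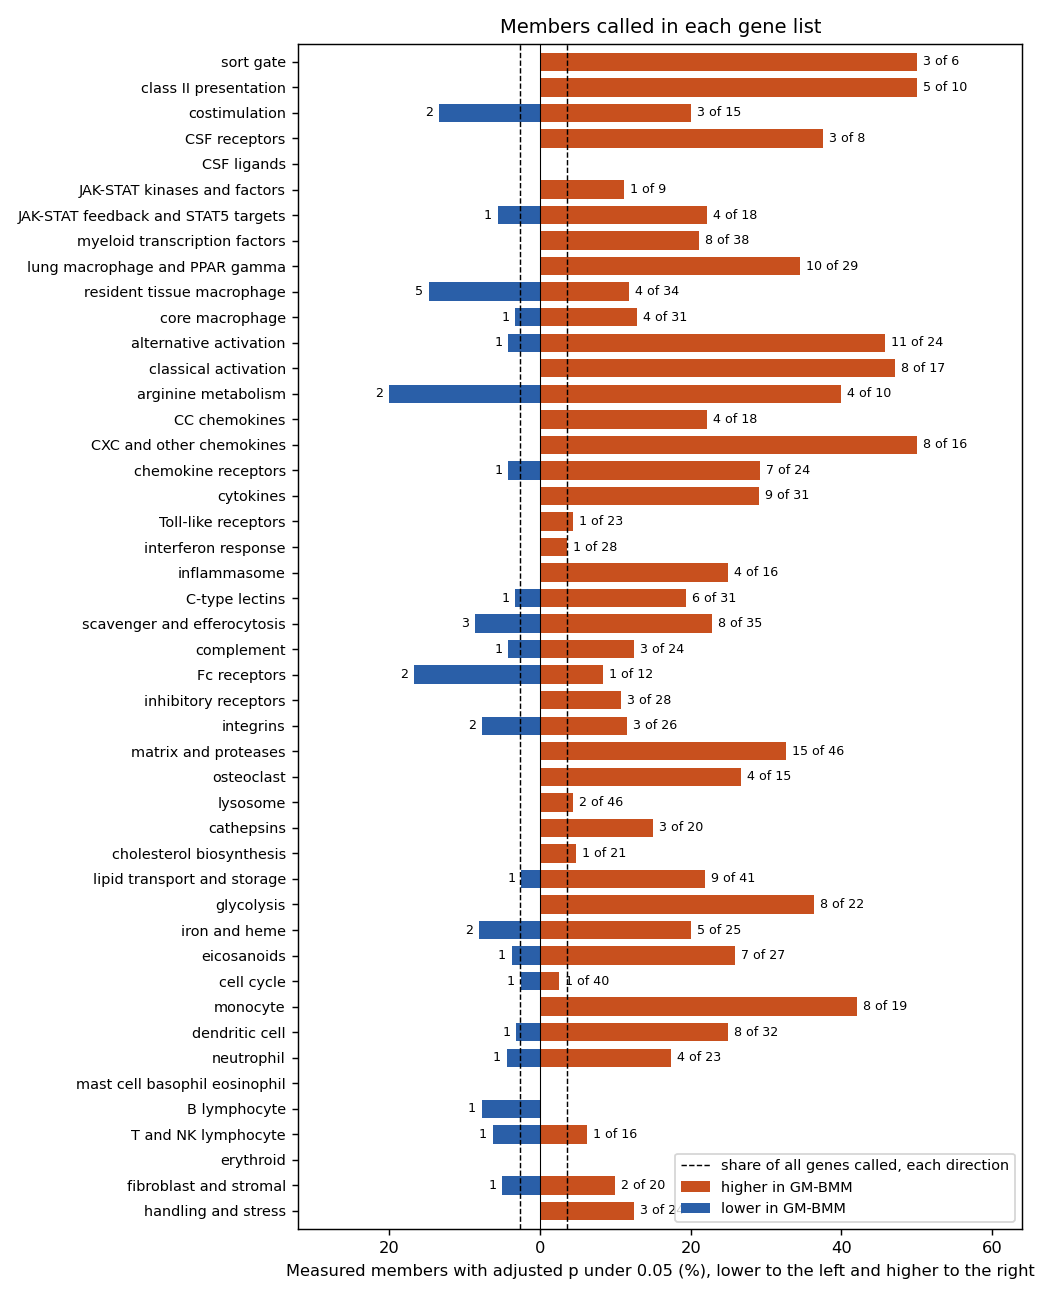
Bars give the share of the measured members of each gene list that passed the test (x axis, %), higher in GM-BMM to the right and lower to the left. Dashed lines mark the share of all genes that passed in each direction, 3.62% and 2.57%. The list of matrix proteins and proteases has the most members that were higher, 15 of 46.

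The growth factor receptors did not move together. The 3 GM-CSF and IL-3 receptor chains Csf2ra, Csf2rb and Csf2rb2 rose in GM-BMM, whereas Csf1r, the M-CSF receptor, read 11.62 and 11.97 against 11.69 and 11.57 and did not pass (log2 0.16, SE 0.29, adjusted p = 0.847). Csf2ra, the GM-CSF-specific alpha chain, read 10.99 and 11.07 against 9.87 and 9.94 (2.19-fold, adjusted p = 0.00154). Csf2rb, the common beta chain, read 12.60 and 11.98 against 10.29 and 10.30 (3.99-fold, adjusted p = 0.00128). Csf2rb2, a mouse beta chain that serves IL-3, read 11.74 and 11.24 against 9.09 and 8.99 (5.46-fold, adjusted p = 0.000348). The calls of all 3 held throughout. Csf2rb and Csf2rb2 are near-identical genes, so their probes may read each other. These were 3 of 8 receptors listed. Csf3r (the G-CSF receptor), Il3ra, Kit and Flt3 had log2 differences of -0.86, 0.02, 0.13 and -0.32 and did not pass. None of 8 ligands of these receptors passed. Csf1, which encodes M-CSF, came nearest, at 8.99 and 7.61 against 6.81 and 6.50 (3.13-fold higher, adjusted p = 0.0518). With arrays left out the receptors counted 3 higher and 1 lower without either GM-BMDC array, and the ligands 1 higher and 0 lower without either GM-BMM array.

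Jak2, the kinase bound to the beta chain, was 3.72-fold higher (10.25 and 10.52 against 8.59 and 8.39, adjusted p = 0.00119), the call held throughout, and no other of 9 kinases and STAT factors passed. Of 18 feedback inhibitors and STAT5 targets 4 rose and 1 fell. Socs1 read 9.59 and 8.91 against 7.30 and 7.41 (3.74-fold) and Socs3 read 9.70 and 9.65 against 8.54 and 8.40 (2.30-fold). Both encode inhibitors that cytokine receptors induce and that act back on them. Socs2, of the same family, was 8.74-fold higher but its GM-BMM arrays lay apart (9.33 and 6.91 against 4.85 and 5.13). Osm, the cytokine oncostatin M, was 2.21-fold higher, and Il2ra, the alpha chain of the IL-2 receptor, was 2.70-fold lower. A second probe set of Socs2 gave a log2 difference of 1.08 and a second of Socs3 gave 0.56. None of the 5 calls held throughout. Socs1 and Il2ra did not pass without M-BMM replicate 1 (adjusted p = 0.0773 and 0.118) or replicate 2 (0.0722 and 0.133). Socs2 did not pass without M-BMM replicate 1 (adjusted p = 0.235), replicate 2 (0.203) or either GM-BMDC array (0.0513). Socs3 did not pass without M-BMM replicate 2 (adjusted p = 0.059). Osm did not pass without GM-BMM replicate 1 (adjusted p = 0.0634), M-BMM replicate 1 (0.159) or replicate 2 (0.208). Socs2 had a log2 difference of 1.92 without GM-BMM replicate 1 and 4.34 without replicate 2, against 3.13 with all arrays. The list counted 5 higher and 2 lower without GM-BMM replicate 2, 1 higher and 0 lower without M-BMM replicate 1 and 0 higher and 0 lower without M-BMM replicate 2. Cish, a further STAT5 target, read 9.54 and 7.03 against 6.03 and 6.28 and did not pass (adjusted p = 0.136).

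**Figure D4:**
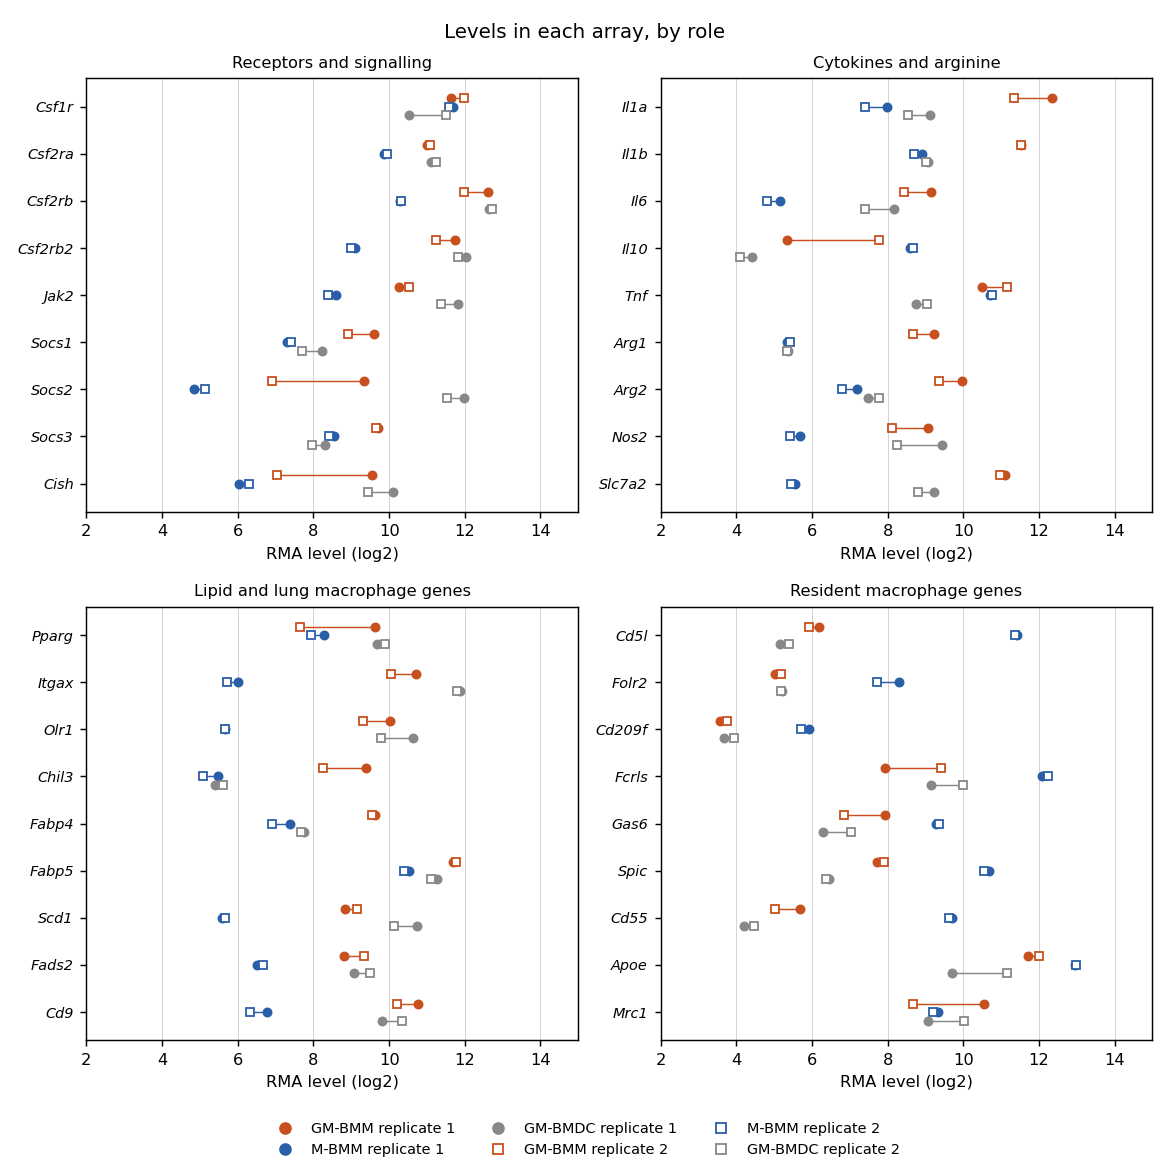
RMA level (x axis, log2) in every array for 36 genes in 4 groups of roles, with filled circles for replicate 1 and open squares for replicate 2. Csf1r overlaps between the macrophage populations and the GM-CSF receptor genes do not, while Il10, Socs2, Cish, Pparg and Mrc1 show GM-BMM arrays far apart. Arrays of the populations did not overlap for 49.8% of all genes.

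The promoters of Csf2rb2, Socs3 and Chil3, all higher in GM-BMM, are shown because each held a match to TTCNNNGAA, the palindromic element that STAT factors bind, and they were picked for it. Each sequence is 100 bases from RefSeq (GRCm38.p6), 5′ to 3′ on the strand of the gene, with the match in capitals. For Csf2rb2 it ends at the base before the annotated start, and for Socs3 and Chil3 it spans bases 200 to 101 before the start.
Csf2rb2, chr15:78305722-78305821, minus strand: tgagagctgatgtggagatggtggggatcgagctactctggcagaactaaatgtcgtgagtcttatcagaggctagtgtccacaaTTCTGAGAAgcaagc
Socs3, chr11:117969467-117969566, minus strand: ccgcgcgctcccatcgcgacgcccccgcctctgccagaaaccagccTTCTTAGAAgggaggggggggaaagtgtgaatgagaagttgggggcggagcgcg
Chil3, chr3:106167665-106167764, minus strand: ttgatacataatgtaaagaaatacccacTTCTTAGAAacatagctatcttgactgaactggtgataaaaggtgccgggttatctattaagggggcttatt
The matches begin 15, 154 and 172 bases before the starts. The element reads the same on both strands. Windows from 250 bases before to 50 after a start held it in 8.3% of 32851 promoters and in 14 of the 137 promoters of the named genes. A match describes letters and does not show binding. The call of Socs3 was lost without M-BMM replicate 2, as given above.

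Class II genes were higher in GM-BMM, which was gated for low MHC class II, than in M-BMM, which was not gated on it. H2-Aa, the alpha chain of I-A, read 10.25 and 11.45 against 6.37 and 6.11 (24.4-fold, adjusted p = 0.000355). H2-Ab1, its beta chain, read 10.08 and 11.27 against 5.81 and 6.35 (24.2-fold, adjusted p = 0.000512). In both genes GM-BMM replicate 2 was the higher of the GM-BMM arrays, and GM-BMDC lay above them (13.07 and 13.05 for H2-Aa; GM-BMDC minus GM-BMM log2 2.21, adjusted p = 0.0069). H2-Eb1, the I-E beta chain, was 7.85-fold higher (9.78 and 11.04 against 7.18 and 7.70). H2-Eb1 did not pass without M-BMM replicate 1 (adjusted p = 0.0689). H2-Aa, H2-Ab1 and H2-Eb1 had a log2 difference of 5.21, 5.19 and 3.60 without GM-BMM replicate 1 and 4.01, 3.999 and 2.34 without replicate 2, against 4.61, 4.60 and 2.97 with all arrays. H2-Ea, which encodes the I-E alpha chain, read 4.03 and 4.15 against 4.12 and 4.14, below the 25th percentile of all values (5.04).

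Of 10 class II genes outside the gate 5 rose and 0 fell, with a median log2 difference of 0.69. Cd74, the invariant chain, read 11.22 and 11.66 against 7.57 and 7.73 (13.9-fold, adjusted p = 4.14e-05). H2-Oa, a modulator of peptide loading, read 7.80 and 7.47 against 6.24 and 6.07 (2.78-fold, adjusted p = 0.00121). These 2 calls held throughout. H2-DMa, a peptide exchange factor, was 3.55-fold higher, and Ctss and Ifi30, lysosomal enzymes that prepare peptides, were 1.83-fold and 1.53-fold higher. H2-DMa did not pass without M-BMM replicate 1 (adjusted p = 0.0636) or replicate 2 (0.0611). Ctss did not pass without GM-BMM replicate 2 (adjusted p = 0.0691), M-BMM replicate 1 (0.124) or replicate 2 (0.168). Ifi30 did not pass without GM-BMM replicate 1 (adjusted p = 0.128), replicate 2 (0.13), M-BMM replicate 1 (0.235) or replicate 2 (0.224). Counted with arrays left out, the list had 2 higher and 0 lower without either M-BMM array. Ciita, the transactivator of the class II genes, read 6.09 and 6.74 against 5.84 and 5.84 and did not pass (adjusted p = 0.162).

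The class II promoters of H2-Aa, H2-Eb1 and H2-Oa held the Y box CTGATTGG, an element known from such promoters, and are shown because they hold it and their genes moved together. Each sequence is the 100 bases before the annotated start (RefSeq, GRCm38.p6, 5′ to 3′ on the strand of the gene, Y box in capitals).
H2-Aa, chr17:34287824-34287923, minus strand: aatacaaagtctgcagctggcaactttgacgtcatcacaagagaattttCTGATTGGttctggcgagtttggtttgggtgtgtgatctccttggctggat
H2-Eb1, chr17:34305767-34305866, plus strand: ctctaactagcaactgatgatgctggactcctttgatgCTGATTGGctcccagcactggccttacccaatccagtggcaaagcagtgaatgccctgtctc
H2-Oa, chr17:34092279-34092378, plus strand: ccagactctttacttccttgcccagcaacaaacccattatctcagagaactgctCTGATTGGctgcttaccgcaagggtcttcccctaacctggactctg
The Y boxes begin 51, 62 and 46 bases before the starts. With both strands searched, the motif was in 4.1% of all promoters and in 5 of the 137 promoters of the named genes.

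Costimulatory genes gave 3 increases and 2 decreases among 15 measured, and none of these calls held throughout. Cd200, a ligand that restrains macrophages, read 7.41 and 7.47 against 4.82 and 5.30 (5.19-fold), and Pdcd1lg2 (PD-L2) read 8.38 and 6.85 against 5.53 and 5.48 (4.33-fold). Cd274 (PD-L1) was 1.86-fold higher. Cd83, a maturation marker of dendritic cells, read 7.57 and 7.14 against 8.84 and 9.03 (2.98-fold lower), and Tnfsf18 was 1.80-fold lower. Cd200, Pdcd1lg2 and Cd83 did not pass without M-BMM replicate 1 (adjusted p = 0.0994, 0.221 and 0.0793) or replicate 2 (0.0632, 0.232 and 0.108). Cd274 and Tnfsf18 did not pass without GM-BMM replicate 1 (adjusted p = 0.128 and 0.126), replicate 2 (0.0711 and 0.12), M-BMM replicate 1 (0.206 and 0.231) or replicate 2 (0.203 and 0.059). Pdcd1lg2 had a log2 difference of 1.35 without GM-BMM replicate 1 and 2.88 without replicate 2, against 2.11 with all arrays. The list had 2 higher and 1 lower without either GM-BMM array and 0 higher and 0 lower without either M-BMM array.

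Among 38 myeloid transcription factors 8 rose and 0 fell, and the median log2 difference was 0.28. Egr2, a zinc finger factor induced by growth factors, read 9.64 and 9.03 against 5.46 and 6.08 (11.8-fold, adjusted p = 0.000307). Bhlhe40, a repressor known for its part in cytokine expression, read 9.29 and 8.87 against 6.02 and 5.63 (9.53-fold, adjusted p = 0.000169). Runx3, a Runt domain factor, read 8.55 and 8.48 against 6.98 and 6.90 (2.98-fold, adjusted p = 0.000307). The 3 calls held throughout. Irf4, a factor of dendritic cells and of alternative activation, was 5.13-fold higher, Bhlhe41, a relative of Bhlhe40, 2.73-fold, Hif1a, the oxygen-regulated factor, 2.11-fold, Mitf 1.74-fold and Id2 1.68-fold. Irf4 and Id2 did not pass without M-BMM replicate 1 (adjusted p = 0.0954 and 0.0705) or replicate 2 (0.0901 and 0.0996). Bhlhe41 and Hif1a did not pass without M-BMM replicate 2 (adjusted p = 0.0685 and 0.059). Mitf did not pass without GM-BMM replicate 1 (adjusted p = 0.122), replicate 2 (0.0711), M-BMM replicate 1 (0.0954) or replicate 2 (0.224). The list had 9 higher and 1 lower without GM-BMM replicate 2, 5 higher and 0 lower without M-BMM replicate 1, 3 higher and 0 lower without M-BMM replicate 2 and 10 higher and 1 lower without either GM-BMDC array. Spi1, Cebpa, Irf8 and Zeb2, factors of general myeloid identity, did not pass. Maf, a factor of M-CSF-dependent macrophages, read 10.09 and 10.65 against 11.28 and 11.32 (log2 -0.93, adjusted p = 0.246), and Pparg read 9.62 and 7.64 against 8.27 and 7.95 (log2 0.52, adjusted p = 0.707).

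Genes of lung macrophages and of PPARγ rose in part. Of 29 measured 10 were higher and 0 lower, the median log2 difference was 0.62, and 8 calls held throughout. Itgax (CD11c), an integrin of dendritic cells and lung macrophages, read 10.72 and 10.05 against 6.01 and 5.71 (23.0-fold, adjusted p = 6.53e-05). Olr1, a receptor for oxidised lipoprotein, read 10.02 and 9.30 against 5.67 and 5.66 (15.9-fold, adjusted p = 0.000512). Atp6v0d2, a subunit of the vacuolar proton pump, read 12.03 and 10.71 against 6.98 and 6.95 (21.1-fold). None of the M-BMM arrays came near the GM-BMM arrays in these genes. Cd9, a tetraspanin, was 15.4-fold higher, Fabp4, a fatty acid carrier and PPARγ target, 5.46-fold, Lpl, lipoprotein lipase, 2.71-fold, and Fabp5, a further fatty acid carrier, 2.40-fold. Chil3, a chitinase-like protein of lung macrophages, read 9.40 and 8.27 against 5.48 and 5.08 (11.8-fold) and was low in GM-BMDC (5.40 and 5.61; GM-BMDC minus GM-BMM log2 -3.33, adjusted p = 0.00124). Chil3 has close relatives that probes may not separate. In GM-BMDC the mean levels of Itgax, Olr1, Atp6v0d2 and Cd9 were 11.83, 10.21, 11.04 and 10.07, so these genes were high there too. Those of Lpl, Fabp5 and Fabp4 were 11.64, 11.19 and 7.72. Mcoln3, a lysosomal channel, was 3.62-fold and Abcg1, a sterol exporter, 1.66-fold higher. Mcoln3 and Abcg1 did not pass without M-BMM replicate 1 (adjusted p = 0.109 and 0.0938) or replicate 2 (0.108 and 0.09). Atp6v0d2 had a log2 difference of 3.74 without GM-BMM replicate 1 and 5.06 without replicate 2, against 4.40 with all arrays. Over the whole list there were 17 higher and 1 lower without GM-BMM replicate 2. Car4, a carbonic anhydrase of lung macrophages, read 9.05 and 6.09 against 5.31 and 5.54 and did not pass (adjusted p = 0.186). In all, 19 members did not pass, in both directions. Among them Siglecf read 7.26 and 6.70 against 7.06 and 7.23 (log2 -0.16). Marco read 8.44 and 9.65 against 10.17 and 9.94 (log2 -1.01). Cd36, Cd200r4 and Slc39a2 had log2 differences of 0.38, 1.08 and 1.45.

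The promoters of Itgax, Olr1 and Mmp12 are shown because their genes were among the largest increases and each holds TGANTCA, the element of AP-1 factors, for which they were picked. Each sequence is the 100 bases before an annotated start (RefSeq, GRCm38.p6, 5′ to 3′ on the strand of the gene, match in capitals), and for Mmp12 the start is the downstream of 2 that are annotated.
Itgax, chr7:128129450-128129549, plus strand: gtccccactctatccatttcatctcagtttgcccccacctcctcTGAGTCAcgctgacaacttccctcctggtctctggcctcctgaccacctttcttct
Olr1, chr6:129507166-129507265, minus strand: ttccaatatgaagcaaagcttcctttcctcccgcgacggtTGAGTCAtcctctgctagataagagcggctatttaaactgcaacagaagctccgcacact
Mmp12, chr9:7347274-7347373, plus strand: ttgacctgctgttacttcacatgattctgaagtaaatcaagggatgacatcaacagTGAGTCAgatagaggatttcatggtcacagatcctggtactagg
The matches begin 56, 60 and 44 bases before the starts. With both strands searched, the element was in 7.81% of all promoters and in 19 of the 137 promoters of the named genes. For the interferon response element GAAANNGAA these shares were 8.56% and 15 of 137, and for the sterol response element TCACNCCAC 1.24% and 1 of 137.

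Markers of resident tissue macrophages split. Of 34 measured 5 fell and 4 rose. Besides Cd5l (40.4-fold lower), Folr2, a folate receptor of M-CSF-dependent macrophages, read 5.04 and 5.18 against 8.31 and 7.72 (7.50-fold lower, adjusted p = 0.000225). Cd209f, a lectin of the DC-SIGN family whose members probes may not separate, read 3.57 and 3.75 against 5.91 and 5.71 (4.44-fold lower on low signal in GM-BMM, adjusted p = 0.000231). These 3 calls held throughout. Fcrls was 11.2-fold lower and Gas6, a bridge to apoptotic cells, 3.82-fold lower (7.94 and 6.84 against 9.29 and 9.35). The increases were those of P2ry13, a nucleotide receptor (4.26-fold), Pf4, platelet factor 4 (3.67-fold), Trem2, a lipid receptor (1.91-fold), and Tmem119, a microglial marker (1.82-fold). Fcrls, Gas6 and Pf4 did not pass without M-BMM replicate 1 (adjusted p = 0.069, 0.169 and 0.121) or replicate 2 (0.0831, 0.19 and 0.19). P2ry13 did not pass without GM-BMM replicate 1 (adjusted p = 0.0635), M-BMM replicate 1 (0.121) or replicate 2 (0.138). Trem2 did not pass without GM-BMM replicate 1 (adjusted p = 0.124), replicate 2 (0.0982), M-BMM replicate 1 (0.188) or replicate 2 (0.239). Tmem119 did not pass without GM-BMM replicate 1 (adjusted p = 0.106) or M-BMM replicate 2 (0.167). Fcrls had a log2 difference of -2.75 without GM-BMM replicate 1 and -4.22 without replicate 2, against -3.49 with all arrays. The list had 1 higher and 3 lower without M-BMM replicate 1, 0 higher and 3 lower without M-BMM replicate 2 and 5 higher and 8 lower without either GM-BMDC array. Apoe, a lipid carrier, read 11.70 and 11.999 against 12.95 and 12.99 and did not pass (adjusted p = 0.176), nor did Mrc1, the mannose receptor, which read 10.54 and 8.68 against 9.34 and 9.21.

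Of 31 genes shared by macrophages of many tissues 4 rose and 1 fell. Naaa, a lysosomal amidase, read 12.27 and 11.61 against 9.12 and 8.96 (7.46-fold) and Lgals3, galectin 3, read 12.63 and 12.43 against 11.40 and 11.31 (2.26-fold). Both calls held throughout. Cd14, the endotoxin co-receptor, was 3.16-fold and Cd63, a tetraspanin of lysosomes, 1.73-fold higher, and Fer, a tyrosine kinase, was 2.498-fold lower. Cd14 did not pass without M-BMM replicate 1 (adjusted p = 0.0508) or replicate 2 (0.0507). Cd63 did not pass without GM-BMM replicate 1 (adjusted p = 0.101), M-BMM replicate 1 (0.206), replicate 2 (0.231) or either GM-BMDC array (0.0541). Fer did not pass without M-BMM replicate 1 (adjusted p = 0.0501). Across the list there were 5 higher and 2 lower without GM-BMM replicate 2, 2 higher and 0 lower without M-BMM replicate 1 and 2 higher and 1 lower without M-BMM replicate 2.

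Genes of alternative activation, linked to IL-4, and of classical activation, linked to interferon gamma and endotoxin, both included many that rose. Of 17 classical genes 8 were higher and 0 lower (median log2 difference 0.89). Il1a read 12.34 and 11.35 against 7.97 and 7.42 (17.8-fold, adjusted p = 0.000701) and Il1b read 11.52 and 11.54 against 8.91 and 8.70 (6.62-fold, adjusted p = 4.34e-05), the 2 forms of IL-1. Il6 read 9.14 and 8.42 against 5.15 and 4.82 (13.9-fold, adjusted p = 0.000568). Il12a, the p35 subunit of IL-12, read 8.81 and 8.64 against 5.58 and 5.45 (9.29-fold, adjusted p = 2.95e-05). The calls of these cytokines, of Ccl5 (9.57-fold) and of Ptgs2, the inducible cyclooxygenase (5.41-fold), held throughout. Nos2, the inducible nitric oxide synthase, read 9.07 and 8.12 against 5.69 and 5.43 (8.20-fold), and Cxcl10, an interferon-induced chemokine, was 2.24-fold higher. Nos2 did not pass without M-BMM replicate 1 (adjusted p = 0.0729) or replicate 2 (0.0928). Cxcl10 did not pass without GM-BMM replicate 2 (adjusted p = 0.0627), M-BMM replicate 1 (0.14) or replicate 2 (0.16). The classical genes counted 7 higher and 1 lower without GM-BMM replicate 2. Tnf, tumour necrosis factor, read 10.49 and 11.16 against 10.70 and 10.77 and did not pass (log2 0.09, adjusted p = 0.891).

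Of 24 alternative genes 11 were higher and 1 lower (median log2 difference 1.42), and 12 did not pass. Among those 12, Retnla read 4.47 and 4.14 against 4.18 and 4.49 (log2 -0.03), below the 25th percentile of all values (5.04). Clec10a had a log2 difference of -0.37 and Chil4 of 0.32. Arg1, the arginase of IL-4-treated macrophages, read 9.23 and 8.67 against 5.35 and 5.43 (11.7-fold, adjusted p = 7.68e-05), and it was low in GM-BMDC (5.37 and 5.34; GM-BMDC minus GM-BMM log2 -3.60, adjusted p = 7.29e-05). Il1rn, the IL-1 receptor antagonist, was 5.08-fold and Tgm2, a transglutaminase, 2.40-fold higher. These calls and those of Egr2, Chil3 and Clec7a held throughout. Il4ra, the receptor chain for IL-4, was 1.80-fold lower. Il4ra did not pass without GM-BMM replicate 2 (adjusted p = 0.0508), M-BMM replicate 1 (0.133) or replicate 2 (0.0906). The list had 11 higher and 2 lower without GM-BMM replicate 1, 13 higher and 0 lower without GM-BMM replicate 2, 6 higher and 0 lower without M-BMM replicate 1 and 7 higher and 0 lower without M-BMM replicate 2. Ccl17, a chemokine, read 10.74 and 6.74 against 5.99 and 5.94 and Mgl2, a lectin, read 9.47 and 5.87 against 5.91 and 6.27. Both are typical of IL-4 treatment, and neither passed (adjusted p = 0.202 and 0.46). Among the macrophage arrays both were high in GM-BMM replicate 1 alone. Both were higher still in the GM-BMDC arrays, at 13.29 and 13.03 for Ccl17 and 11.41 and 11.80 for Mgl2.

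Arginase and nitric oxide synthase compete for arginine. Of 10 genes of arginine metabolism 4 rose and 2 fell, with a median log2 difference of 0.01. Besides Slc7a2, Arg1 and Nos2, the mitochondrial arginase Arg2 was higher (9.96 and 9.36 against 7.20 and 6.80; 6.30-fold, adjusted p = 0.000765). The calls of Slc7a2, Arg1 and Arg2 held throughout. Slc7a1, the other main arginine carrier of the family, read 7.20 and 7.83 against 8.45 and 8.61 (2.02-fold lower), and Srm, spermidine synthase, was 1.496-fold lower. Nos2 did not pass without M-BMM replicate 1 (adjusted p = 0.0729) or replicate 2 (0.0928). Slc7a1 did not pass without GM-BMM replicate 1 (adjusted p = 0.118), M-BMM replicate 1 (0.188) or replicate 2 (0.257). Srm did not pass without GM-BMM replicate 1 (adjusted p = 0.159), M-BMM replicate 1 (0.168), replicate 2 (0.231) or either GM-BMDC array (0.0512). The list had 4 higher and 0 lower without GM-BMM replicate 1, 3 higher and 0 lower without either M-BMM array and 4 higher and 1 lower without either GM-BMDC array.

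Of 31 cytokine genes 9 rose and 0 fell. Calls that held throughout were those of Il1a, Il1b, Il1rn, Il6, Il12a, Inhba and Vegfa. Vegfa, the vascular growth factor, read 10.32 and 10.44 against 8.98 and 8.68 (2.93-fold, adjusted p = 0.000867). Hgf, hepatocyte growth factor, was 1.97-fold and Osm 2.21-fold higher. Hgf and Osm did not pass without GM-BMM replicate 1 (adjusted p = 0.11 and 0.0634), M-BMM replicate 1 (0.193 and 0.159) or replicate 2 (0.157 and 0.208). The cytokines counted 9 higher and 1 lower without GM-BMM replicate 1, 10 higher and 1 lower without GM-BMM replicate 2 and 11 higher and 1 lower without either GM-BMDC array. Il10, an anti-inflammatory cytokine, read 5.34 and 7.77 against 8.58 and 8.68. Its arrays did not overlap between the populations, as held for 49.8% of all genes. GM-BMM replicate 2 lay nearer M-BMM, and Il10 did not pass (log2 -2.08, SE 0.65, adjusted p = 0.125).

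Of 16 CXC and other chemokines 8 rose and 0 fell (median log2 difference 1.04). Cxcl3 read 10.70 and 9.61 against 5.45 and 5.08 (29.7-fold, adjusted p = 0.000245) and Cxcl2 read 11.64 and 11.22 against 9.40 and 9.15 (4.45-fold, adjusted p = 0.0018). Both attract neutrophils, and their calls held throughout. Ppbp, the precursor of a platelet chemokine, read 12.28 and 10.87 against 8.25 and 7.40 (13.4-fold), and Cxcl5, Cxcl16 and Cxcl1 were 3.75-fold, 3.55-fold and 1.90-fold higher. Ppbp did not pass without M-BMM replicate 2 (adjusted p = 0.0669). Cxcl5 and Cxcl16 did not pass without M-BMM replicate 1 (adjusted p = 0.119 and 0.0907) or replicate 2 (0.133 and 0.122). Cxcl1 did not pass without M-BMM replicate 1 (adjusted p = 0.0592). Ppbp had a log2 difference of 3.04 without GM-BMM replicate 1 and 4.45 without replicate 2, against 3.75 with all arrays. This list had 3 higher and 0 lower without either M-BMM array.

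Of 18 CC chemokines 4 rose and 0 fell. Ccl5 (RANTES) read 12.04 and 12.57 against 9.04 and 9.05 (9.57-fold, adjusted p = 0.000148) and Ccl9 read 11.81 and 11.39 against 10.08 and 9.90 (3.05-fold, adjusted p = 0.0013), and both calls held throughout. Ccl22 was 3.45-fold and Ccl6 2.62-fold higher. Ccl22 did not pass without M-BMM replicate 1 (adjusted p = 0.12) or replicate 2 (0.223). Ccl6 did not pass without M-BMM replicate 1 (adjusted p = 0.17), replicate 2 (0.242) or either GM-BMDC array (0.0511). Counts with arrays left out were 2 higher and 0 lower without either M-BMM array.

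Of 24 receptors for chemokines and related attractants 7 rose and 1 fell. Cxcr4, a receptor that retains cells in the marrow, read 9.64 and 9.56 against 8.19 and 8.002 (2.84-fold, adjusted p = 0.00102), and its call held throughout. Ccr2, which brings monocytes out of the marrow, read 9.95 and 9.70 against 7.36 and 6.29 (7.99-fold). Ccr1, a receptor for inflammatory chemokines, was 7.39-fold and Cmklr1, the chemerin receptor, 3.16-fold higher, whereas Cxcr3 was 1.70-fold lower. Ccr2 did not pass without M-BMM replicate 2 (adjusted p = 0.0504). Ccr1 and Cmklr1 did not pass without M-BMM replicate 1 (adjusted p = 0.104 and 0.102) or replicate 2 (0.132 and 0.131). Cxcr3 did not pass without GM-BMM replicate 1 (adjusted p = 0.109), M-BMM replicate 1 (0.165) or replicate 2 (0.0584). Ccr1 had a log2 difference of 2.25 without GM-BMM replicate 1 and 3.52 without replicate 2, against 2.89 with all arrays. The list had 7 higher and 0 lower without GM-BMM replicate 1 and 2 higher and 0 lower without either M-BMM array. Cx3cr1, the fractalkine receptor, was high in GM-BMM replicate 2 alone (6.94 and 9.77 against 6.94 and 6.92) and did not pass (adjusted p = 0.374).

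Among 31 C-type lectins, which bind sugars of microbes and dead cells, 6 rose and 1 fell. Clec7a (dectin 1, a receptor for fungal glucans) read 10.92 and 10.35 against 7.36 and 7.03 (10.9-fold, adjusted p = 0.000169). Clec4e (Mincle) read 11.88 and 12.10 against 10.45 and 10.19 (3.18-fold), and Clec9a, a receptor for dead cells, read 7.77 and 7.04 against 5.06 and 4.87 (5.43-fold). These calls and the decrease of Cd209f held throughout. Ly75, an endocytic receptor, Clec5a and Clec4n (dectin 2) were 5.22-fold, 5.02-fold and 4.57-fold higher. Ly75 and Clec4n did not pass without M-BMM replicate 2 (adjusted p = 0.0564 and 0.0632). Clec5a did not pass without GM-BMM replicate 1 (adjusted p = 0.076), M-BMM replicate 1 (0.125) or replicate 2 (0.173). The lectins counted 5 higher and 3 lower without GM-BMM replicate 1, 3 higher and 1 lower without M-BMM replicate 2 and 8 higher and 2 lower without either GM-BMDC array.

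Of 23 Toll-like receptors and adaptors 1 rose, Cd14 (3.16-fold), near the background of 3.62%. Genes of the interferon response gave 1 increase among 28, that of Oas3, which senses double-stranded RNA (2.07-fold), also near the background. The mean level of the interferon list was 9.75 and 10.46 in GM-BMM against 9.88 and 9.76 in M-BMM, so GM-BMM replicate 2 was above both M-BMM arrays and replicate 1 near them. Without both GM-CSF arrays numbered 1, 13 of the 28 were higher and 0 lower. Of 16 inflammasome genes 4 rose. Nlrp3, a cytosolic sensor, read 9.36 and 9.56 against 7.98 and 7.94 (2.84-fold), and the sensors of bacterial proteins Naip2, Naip5 and Naip6, close relatives that probes may not separate, were 2.19-fold, 1.97-fold and 1.94-fold higher. Cd14, Nlrp3 and Naip5 did not pass without M-BMM replicate 1 (adjusted p = 0.0508, 0.0644 and 0.0689) or replicate 2 (0.0507, 0.0738 and 0.104). Oas3 did not pass without M-BMM replicate 1 (adjusted p = 0.176), replicate 2 (0.234) or either GM-BMDC array (0.0503). Naip2 did not pass without M-BMM replicate 2 (adjusted p = 0.0675). Naip6 did not pass without GM-BMM replicate 1 (adjusted p = 0.0825), M-BMM replicate 1 (0.0637) or replicate 2 (0.167). With arrays left out, the Toll-like receptors counted 2 higher and 3 lower without GM-BMM replicate 2, 0 higher and 0 lower without either M-BMM array and 2 higher and 0 lower without either GM-BMDC array. Genes of the interferon response counted 6 higher and 0 lower without GM-BMM replicate 1, 1 higher and 1 lower without GM-BMM replicate 2 and 0 higher and 0 lower without either M-BMM array. For the inflammasome there were 1 higher and 0 lower without M-BMM replicate 1, 0 higher and 0 lower without M-BMM replicate 2 and 5 higher and 1 lower without either GM-BMDC array.

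Of 12 Fc receptor genes 1 rose and 2 fell, beside 3.62% and 2.57% of all genes. Fcgr2b, the inhibitory receptor for IgG, read 12.12 and 12.07 against 11.08 and 11.03 (2.06-fold). Fcrl1, an Fc receptor-like protein known from B cells, read 5.77 and 6.22 against 8.30 and 8.38 (5.10-fold lower, adjusted p = 0.00102), and its call held throughout. Fcrls was the other that fell. Fcgr2b and Fcrls did not pass without M-BMM replicate 1 (adjusted p = 0.0772 and 0.069) or replicate 2 (0.0903 and 0.0831). Fcrls had a log2 difference of -2.75 without GM-BMM replicate 1 and -4.22 without replicate 2, against -3.49 with all arrays. The list had 0 higher and 1 lower without either M-BMM array.

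Of 28 inhibitory and paired receptors 3 rose and 0 fell, beside 3.62% and 2.57% of all genes. Trem1, an amplifier of inflammatory signals, read 8.61 and 8.47 against 5.16 and 5.34 (9.79-fold, adjusted p = 0.000577), and Cd300lf, an inhibitory lipid receptor, read 10.11 and 9.83 against 7.85 and 7.66 (4.65-fold, adjusted p = 0.000384). Both calls held throughout. The third was Trem2 (1.91-fold). Trem2 did not pass without GM-BMM replicate 1 (adjusted p = 0.124), replicate 2 (0.0982), M-BMM replicate 1 (0.188) or replicate 2 (0.239). The paired receptors counted 4 higher and 1 lower without GM-BMM replicate 1, 3 higher and 3 lower without GM-BMM replicate 2 and 7 higher and 1 lower without either GM-BMDC array.

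Genes for the uptake of dead cells and modified lipids differed in both directions: of 35 measured 8 rose and 3 fell. Axl, a receptor for apoptotic cells, read 11.38 and 11.49 against 8.27 and 8.03 (9.72-fold, adjusted p = 3.31e-05). Mfge8, a bridge between apoptotic cells and integrins, read 10.47 and 10.68 against 7.99 and 7.89 (6.24-fold, adjusted p = 4.73e-05). Elmo1, an adaptor of the engulfment machinery, read 8.65 and 8.93 against 10.49 and 10.49 (3.25-fold lower, adjusted p = 0.000396). Gas6, the ligand that bridges to Axl, was 3.82-fold lower, so ligand and receptor differed in opposite directions, and Mertk, a further receptor of the family, did not pass. The calls of Olr1, Axl, Mfge8, Elmo1, Cd5l, Anxa1 (4.10-fold), Thbs1 (2.29-fold) and Tgm2 held throughout. Msr1, the class A scavenger receptor, was 2.27-fold higher. Gas6 did not pass without M-BMM replicate 1 (adjusted p = 0.169) or replicate 2 (0.19). Msr1 did not pass without GM-BMM replicate 1 (adjusted p = 0.0677), replicate 2 (0.0794), M-BMM replicate 1 (0.0962) or replicate 2 (0.202).

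Of 24 complement genes 3 rose and 1 fell, the latter Cd55, beside 3.62% and 2.57% of all genes. The proteases that start the classical pathway were higher: C1s1 read 6.29 and 6.93 against 3.57 and 3.39 (8.76-fold on low signal in M-BMM, adjusted p = 0.000231) and C1ra read 7.54 and 7.95 against 5.70 and 6.26 (3.41-fold, adjusted p = 0.00402). Both calls held throughout, and C1s1 has a close copy that probes may not separate. Cfb, factor B of the alternative pathway, read 10.45 and 11.72 against 8.69 and 8.54 (5.55-fold). Cfb did not pass without M-BMM replicate 1 (adjusted p = 0.0854) or replicate 2 (0.1). Cfb had a log2 difference of 3.11 without GM-BMM replicate 1 and 1.84 without replicate 2, against 2.47 with all arrays. The C1q chains C1qa, C1qb and C1qc did not pass. The list had 3 higher and 2 lower without GM-BMM replicate 1 or either GM-BMDC array.

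Matrix proteins and proteases had 15 increases among 46, and 0 decreases. Mmp12 read 12.80 and 12.35 against 7.73 and 7.59 (30.3-fold, adjusted p = 1.95e-05) and Fn1 read 11.58 and 11.26 against 6.87 and 6.44 (27.1-fold, adjusted p = 4.14e-05). F7, coagulation factor VII, read 11.27 and 11.05 against 6.87 and 6.70 (20.7-fold, adjusted p = 0.000107) and F10, factor X, was 8.78-fold higher, both of the tissue factor pathway of clotting. Mmp2, gelatinase A, read 11.44 and 11.72 against 8.55 and 8.58 (8.08-fold, adjusted p = 4.39e-05) and 7.07 and 7.20 in GM-BMDC. These calls, Thbs1 and Tgm2 held throughout. Serpinb2, an inhibitor of plasminogen activators, read 11.35 and 9.004 against 5.79 and 5.74 (21.3-fold), Mmp8, the neutrophil collagenase, was 14.6-fold higher, and Plaur, the urokinase receptor, Tgfbi and Vcan, matrix proteins, were 5.48-fold, 5.26-fold and 4.10-fold higher. Serpinb2, Plaur and Tgfbi did not pass without M-BMM replicate 1 (adjusted p = 0.0891, 0.144 and 0.1) or replicate 2 (0.094, 0.177 and 0.111). Mmp8 did not pass without M-BMM replicate 2 (adjusted p = 0.0599). Vcan did not pass without M-BMM replicate 1 (adjusted p = 0.25), replicate 2 (0.203) or either GM-BMDC array (0.0513). Serpinb2, Plaur and Vcan had a log2 difference of 3.24, 1.64 and 1.27 without GM-BMM replicate 1 and 5.58, 3.27 and 2.81 without replicate 2, against 4.41, 2.45 and 2.04 with all arrays. The list had 16 higher and 1 lower without GM-BMM replicate 1, 17 higher and 1 lower without GM-BMM replicate 2, 8 higher and 0 lower without M-BMM replicate 1 and 7 higher and 0 lower without M-BMM replicate 2.

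Of 15 osteoclast genes 4 rose. Ctsk, a bone-resorbing cathepsin, read 8.60 and 9.10 against 6.35 and 6.13 (6.11-fold, adjusted p = 0.000701), and its call and that of Atp6v0d2 held throughout. Dcstamp, a fusion receptor, was 5.90-fold and Mmp9, gelatinase B, 2.005-fold higher. Dcstamp did not pass without M-BMM replicate 1 (adjusted p = 0.0581). Mmp9 did not pass without M-BMM replicate 1 (adjusted p = 0.0535) or replicate 2 (0.0793). The list had 4 higher and 1 lower without GM-BMM replicate 2 and 2 higher and 0 lower without M-BMM replicate 1.

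Of 26 integrins 3 rose and 2 fell, beside 3.62% and 2.57% of all genes. Besides Itgax, Itga1, a collagen receptor chain, read 8.52 and 6.94 against 4.85 and 4.98 (7.03-fold higher), and Itga5, a fibronectin receptor chain, was 1.77-fold higher. Itga6, a laminin receptor chain, was 2.53-fold lower and Itga9 read 5.59 and 7.53 against 9.14 and 9.10 (5.90-fold lower). Itga1 and Itga9 did not pass without M-BMM replicate 1 (adjusted p = 0.116 and 0.207) or replicate 2 (0.106 and 0.204). Itga5 did not pass without GM-BMM replicate 2 (adjusted p = 0.0892), M-BMM replicate 1 (0.224), replicate 2 (0.223) or either GM-BMDC array (0.0503). Itga6 did not pass without M-BMM replicate 1 (adjusted p = 0.0617). Itga1 and Itga9 had a log2 difference of 2.02 and -1.59 without GM-BMM replicate 1 and 3.60 and -3.53 without replicate 2, against 2.81 and -2.56 with all arrays. The integrins counted 1 higher and 0 lower without M-BMM replicate 1 and 1 higher and 1 lower without M-BMM replicate 2.

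Of 22 genes of glucose uptake and glycolysis 8 rose and 0 fell (median log2 difference 0.43). Aldoc, an aldolase isoform, read 9.81 and 9.87 against 6.58 and 6.35 (10.4-fold, adjusted p = 7.83e-05). Slc2a1, the glucose transporter GLUT1, read 11.27 and 11.13 against 10.03 and 10.01 (2.26-fold) and Slc16a3, a lactate exporter, read 9.50 and 9.71 against 8.25 and 8.13 (2.66-fold). These 3 calls held throughout. Slc2a6, a hexose transporter, and the enzymes Pfkp, Pgk1, Ldhb and Tpi1 were 2.18-fold, 2.01-fold, 1.70-fold, 1.61-fold and 1.55-fold higher. Slc2a6, Pfkp and Pgk1 did not pass without M-BMM replicate 1 (adjusted p = 0.0645, 0.0725 and 0.0896) or replicate 2 (0.0584, 0.106 and 0.128). Ldhb did not pass without GM-BMM replicate 1 (adjusted p = 0.192), M-BMM replicate 1 (0.169) or replicate 2 (0.278). Tpi1 did not pass without GM-BMM replicate 2 (adjusted p = 0.114), M-BMM replicate 1 (0.159) or replicate 2 (0.222). The list had 3 higher and 0 lower without either M-BMM array.

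Of 41 genes of lipid transport and storage 9 rose and 1 fell (median log2 difference 0.24). Scd1, the stearoyl-CoA desaturase, read 8.83 and 9.16 against 5.57 and 5.66 (10.4-fold, adjusted p = 0.000171). Fads2, a desaturase of polyunsaturated fatty acids, read 8.82 and 9.32 against 6.50 and 6.66 (5.61-fold), and Dgat2, which makes triglycerides, read 8.53 and 8.87 against 6.22 and 6.28 (5.46-fold). With Fabp4, Fabp5 and Lpl these calls held throughout. Vldlr, a lipoprotein receptor, was 1.89-fold lower. Of 21 genes of cholesterol synthesis 1 rose, near the background of 3.62%, which was Mvd, mevalonate decarboxylase (1.97-fold). Vldlr did not pass without GM-BMM replicate 1 (adjusted p = 0.0536), replicate 2 (0.0599) or M-BMM replicate 1 (0.104). Mvd did not pass without M-BMM replicate 1 (adjusted p = 0.0643). The lipid list had 10 higher and 0 lower without GM-BMM replicate 1, 6 higher and 0 lower without M-BMM replicate 1 and 10 higher and 2 lower without either GM-BMDC array. Cholesterol genes counted 2 higher and 0 lower without GM-BMM replicate 2 and 0 higher and 0 lower without M-BMM replicate 1.

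Among 27 eicosanoid genes 7 rose and 1 fell. Ptgs2 read 10.36 and 10.09 against 7.93 and 7.64 (5.41-fold, adjusted p = 0.00119). Ptges, the synthase of prostaglandin E2, read 10.60 and 10.54 against 7.42 and 7.01 (10.2-fold, adjusted p = 4.54e-05) and 6.52 and 6.49 in GM-BMDC. Ptgir, the prostacyclin receptor, read 8.78 and 8.66 against 6.70 and 6.79 (3.93-fold, adjusted p = 0.000169). The 3 calls, 2 in synthesis and 1 in a receptor, held throughout. Alox5, which starts leukotriene synthesis, was 3.57-fold higher, and Pla2g15, a lysosomal phospholipase, 1.64-fold lower. Alox5 did not pass without GM-BMM replicate 1 (adjusted p = 0.0616), M-BMM replicate 1 (0.12) or replicate 2 (0.166). Pla2g15 did not pass without GM-BMM replicate 2 (adjusted p = 0.0686), M-BMM replicate 1 (0.165) or replicate 2 (0.138). The list had 4 higher and 1 lower without GM-BMM replicate 1, 8 higher and 0 lower without GM-BMM replicate 2, 3 higher and 0 lower without either M-BMM array and 8 higher and 2 lower without either GM-BMDC array.

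Of 25 genes of iron, heme and oxidant defence 5 rose and 2 fell. Spic, a factor of iron-recycling macrophages, read 7.72 and 7.90 against 10.68 and 10.54 (6.97-fold lower, adjusted p = 4.34e-05). Slc7a11, the cystine importer, read 11.93 and 11.57 against 9.04 and 8.71 (7.31-fold higher, adjusted p = 0.00028). Both calls held throughout. Hp, haptoglobin, was 10.1-fold higher, Nqo1, a quinone reductase, 2.54-fold, Lcn2, which binds bacterial siderophores, 2.35-fold, and Hmox1, heme oxygenase, 1.68-fold, whereas Cp, ceruloplasmin, was 2.75-fold lower. Hp and Hmox1 did not pass without M-BMM replicate 1 (adjusted p = 0.0506 and 0.0617) or replicate 2 (0.0692 and 0.115). Nqo1 and Lcn2 did not pass without GM-BMM replicate 1 (adjusted p = 0.0721 and 0.0603), M-BMM replicate 1 (0.133 and 0.123) or replicate 2 (0.158 and 0.124). Cp did not pass without M-BMM replicate 2 (adjusted p = 0.0521). The list had 3 higher and 3 lower without GM-BMM replicate 1, 1 higher and 2 lower without M-BMM replicate 1 and 1 higher and 1 lower without M-BMM replicate 2.

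Lysosomal and cell cycle genes had few calls. Of 46 lysosomal genes 2 rose, near the background of 3.62% (median log2 difference 0.03), which were Fuca1, a fucosidase (1.97-fold), and Cd63 (1.73-fold). Of 20 cathepsins and cystatins 3 rose, Ctsk, Ctss (1.83-fold) and Ctsh (1.43-fold). Of 40 cell cycle genes 1 rose and 1 fell, each below the background of its direction, namely E2f2 (1.56-fold higher) and Ccnd1, cyclin D1, which M-CSF is known to induce (2.34-fold lower). Fuca1 did not pass without M-BMM replicate 1 (adjusted p = 0.0681) or replicate 2 (0.0901). Cd63 did not pass without GM-BMM replicate 1 (adjusted p = 0.101), M-BMM replicate 1 (0.206), replicate 2 (0.231) or either GM-BMDC array (0.0541). Ctss did not pass without GM-BMM replicate 2 (adjusted p = 0.0691), M-BMM replicate 1 (0.124) or replicate 2 (0.168). Ctsh did not pass without GM-BMM replicate 1 (adjusted p = 0.0977), replicate 2 (0.138), M-BMM replicate 1 (0.143), replicate 2 (0.249) or either GM-BMDC array (0.0533). E2f2 and Ccnd1 did not pass without GM-BMM replicate 1 (adjusted p = 0.152 and 0.189), replicate 2 (0.132 and 0.056), M-BMM replicate 1 (0.277 and 0.27) or replicate 2 (0.203 and 0.223). The lysosomal list had 1 higher and 0 lower without GM-BMM replicate 1, 2 higher and 1 lower without GM-BMM replicate 2, 0 higher and 0 lower without either M-BMM array and 1 higher and 1 lower without either GM-BMDC array. Cathepsins and cystatins counted 4 higher and 1 lower without GM-BMM replicate 2, 1 higher and 0 lower without either M-BMM array and 3 higher and 1 lower without either GM-BMDC array. Cell cycle genes counted 0 higher and 0 lower without GM-BMM replicate 1 or either M-BMM array and 1 higher and 0 lower without GM-BMM replicate 2.

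Markers of other cells were read on the same arrays. Of 19 monocyte genes 8 rose and 0 fell (median log2 difference 1.16), and the mean level of the list was 8.93 and 8.90 in GM-BMM against 7.76 and 7.57 in M-BMM. Fn1, Chil3, S100a4 (4.54-fold) and S100a6 (3.78-fold) held their calls throughout. Of 32 genes of conventional dendritic cells 8 rose and 1 fell, with a mean level of 7.04 and 6.80 in GM-BMM against 6.36 and 6.36 in M-BMM. The calls of Clec9a, Traf1 (5.49-fold higher) and Bcl11a (2.73-fold lower) held throughout, and Cd24a was 11.7-fold higher. Single markers of dendritic cells did not move together. Clec9a was 5.43-fold higher, and Ccr7 had a log2 difference of 1.16 without either GM-BMDC array. Flt3 and Zbtb46 did not pass, with Flt3 at 4.93 and 5.24 against 5.36 and 5.44 and at 7.32 and 6.80 in GM-BMDC. Cd24a did not pass without M-BMM replicate 1 (adjusted p = 0.0506) or replicate 2 (0.0676). Cd24a had a log2 difference of 2.79 without GM-BMM replicate 1 and 4.32 without replicate 2, against 3.55 with all arrays. The monocyte list had 8 higher and 2 lower without GM-BMM replicate 2, 5 higher and 0 lower without M-BMM replicate 1 and 4 higher and 0 lower without M-BMM replicate 2. Dendritic cell genes counted 3 higher and 1 lower without either M-BMM array. The part of such cells in the differences above was not tested.

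Of 23 neutrophil genes 4 rose and 1 fell, with a mean level of 7.27 and 6.87 in GM-BMM against 6.52 and 6.54 in M-BMM. The increases were Mmp8, Trem1, Lcn2 and Mmp9, and the decrease was Mpo, myeloperoxidase (1.56-fold). Mmp8 did not pass without M-BMM replicate 2 (adjusted p = 0.0599). Lcn2 did not pass without GM-BMM replicate 1 (adjusted p = 0.0603), M-BMM replicate 1 (0.123) or replicate 2 (0.124). Mmp9 did not pass without M-BMM replicate 1 (adjusted p = 0.0535) or replicate 2 (0.0793). Mpo did not pass without GM-BMM replicate 1 (adjusted p = 0.0903), replicate 2 (0.0644), M-BMM replicate 1 (0.157) or replicate 2 (0.165). The list had 3 higher and 0 lower without GM-BMM replicate 1, 8 higher and 0 lower without GM-BMM replicate 2, 2 higher and 0 lower without M-BMM replicate 1, 1 higher and 0 lower without M-BMM replicate 2 and 4 higher and 2 lower without either GM-BMDC array. Of other neutrophil markers S100a8, S100a9, Ly6g, Elane, Ltf and Camp did not pass, whereas Mpo did, as given above.

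Of the lists for other lineages and stress, the stromal list had 15% of its members called, the T and NK cell list 12.5%, the stress list 12.5% and the B cell list 7.69%, against 6.19% over all genes in either direction. None of 17 mast cell, basophil and eosinophil genes passed, with a mean level of 5.63 and 5.13 in GM-BMM against 5.10 and 5.18 in M-BMM, and none of 9 erythroid genes did. Of 13 B cell genes Cd79b, a chain of the B cell receptor, was lower (5.14-fold). Of 16 T and NK cell genes Il7r, the IL-7 receptor, was 5.06-fold higher and Cd4 3.29-fold lower, and both calls held throughout. The T cell receptor genes Cd3d, Cd3e and Cd3g did not pass. Of 20 stromal and endothelial genes 2 rose and 1 fell. Pecam1 (CD31), also a leukocyte gene, was 2.96-fold lower, and its call held throughout. Kdr, a receptor for vascular growth factor, was 3.28-fold and Dcn, decorin, 2.09-fold higher. Of 24 genes that respond to handling and stress 3 rose, Egr2, Ier3 (2.06-fold) and Hsph1 (1.53-fold), and the mean level of the list was 8.21 and 8.45 in GM-BMM against 7.90 and 7.98 in M-BMM. Cd79b and Kdr did not pass without M-BMM replicate 1 (adjusted p = 0.0854 and 0.0501) or replicate 2 (0.0906 and 0.0777). Dcn did not pass without GM-BMM replicate 1 (adjusted p = 0.114), M-BMM replicate 1 (0.129), replicate 2 (0.277) or either GM-BMDC array (0.0592). Ier3 did not pass without GM-BMM replicate 1 (adjusted p = 0.138), M-BMM replicate 1 (0.243) or replicate 2 (0.224). Hsph1 did not pass without GM-BMM replicate 1 (adjusted p = 0.104), replicate 2 (0.14), M-BMM replicate 1 (0.152) or replicate 2 (0.267). Mast cell genes counted 4 higher and 0 lower without GM-BMM replicate 2, and erythroid genes 0 higher and 1 lower without either GM-BMDC array. B cell genes counted 0 higher and 0 lower without either M-BMM array. For the stromal list there were 1 higher and 1 lower without GM-BMM replicate 1 or either GM-BMDC array, 4 higher and 1 lower without GM-BMM replicate 2 and 0 higher and 1 lower without either M-BMM array. Stress genes counted 1 higher and 0 lower without either M-BMM array and 5 higher and 0 lower without either GM-BMDC array.

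A microRNA cluster on chromosome 16 was lower in GM-BMM. MicroRNAs are short RNAs that pair with messages through a seed, bases 2 to 8 from the 5′ end. The cluster was noticed after its values were seen. Its mature sequences are shown because the host transcript and 2 of its 3 microRNA genes passed the test (RefSeq, GRCm38.p6, 5′ to 3′, seed in capitals).
mmu-miR-99a-5p, chr16:77598940-77598961, plus strand: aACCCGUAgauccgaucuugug
mmu-let-7c-5p, chr16:77599672-77599693, plus strand: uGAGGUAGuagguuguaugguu
mmu-miR-125b-5p, chr16:77646279-77646300, plus strand: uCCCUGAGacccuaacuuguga
The 3 seeds differ. The mature sequence of let-7c-5p starts 732 bases after that of miR-99a-5p, and that of miR-125b-5p starts 46607 bases after that of let-7c-5p. The array reads long and precursor RNA of these genes and not the mature microRNA.

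Mir99ahg, the host transcript, read 5.53 and 5.15 against 7.87 and 7.67 (5.39-fold lower, log2 -2.43, SE 0.19, adjusted p = 0.00052). Mir99a read 4.82 and 4.74 against 6.54 and 6.69 (3.57-fold lower, adjusted p = 0.000171). Mirlet7c-1 read 3.34 and 3.48 against 4.96 and 4.85 (2.83-fold lower, adjusted p = 0.000466), with all 4 values below the 25th percentile of all values (5.04). The calls of these 3 genes held throughout. Mir125b-2 read 2.47 and 2.67 against 2.56 and 2.78 and did not pass (adjusted p = 0.79). Of 296 microRNA genes measured 0 were higher and 5 were lower, both smaller shares than the 3.62% and 2.57% over all genes; their median level in GM-BMM was 4.82. The other 3 were Mir34a (1.70-fold), Mir375 (1.64-fold) and Mir340 (1.60-fold). Mir34a did not pass without GM-BMM replicate 1 (adjusted p = 0.0721), replicate 2 (0.0504) or M-BMM replicate 1 (0.127). Mir375 did not pass without GM-BMM replicate 1 (adjusted p = 0.104), M-BMM replicate 1 (0.158) or replicate 2 (0.169). Mir340 did not pass without GM-BMM replicate 1 (adjusted p = 0.175), replicate 2 (0.0813), M-BMM replicate 1 (0.273) or replicate 2 (0.16). Mir155, known for its induction in inflammatory macrophages, read 7.73 and 6.49 against 5.87 and 6.02 and did not pass (adjusted p = 0.208).

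The GM-BMM arrays differed more from each other than the M-BMM arrays did. The root mean square log2 difference over all genes was 0.31 between the GM-BMM arrays, 0.21 between the M-BMM arrays and 0.47 between the group means. The GM-BMM arrays lay more than 2-fold apart for 240 genes, of which 55 passed the test between the populations, and the M-BMM arrays for 26 genes, of which 1 passed. GM-BMM replicate 2 lay nearer the M-BMM mean than replicate 1 in 185 of the 240 genes, and replicate 1 did in 55. After Xist, Eif2s3y and Uty the widest gaps were those of Serpinb10, a serpin (8.97 and 4.92 against 4.40 and 4.67), Ccl17, Fcrl5, a B cell Fc receptor-like protein (5.24 and 8.89 against 10.93 and 10.95), Mgl2, and Tnfrsf9, the costimulatory receptor 4-1BB (10.75 and 7.31 against 6.70 and 6.65). These genes were taken for their gaps after the values were seen, and none passed the test between the populations. In the GM-BMDC arrays Serpinb10 read 4.88 and 7.26, Fcrl5 6.17 and 5.60, and Tnfrsf9 12.13 and 11.20. Those of Ccl17 and Mgl2 are given above. Without both GM-CSF arrays numbered 1, besides the interferon response, 6 lists had a count that moved by more than 1.5 times and by at least 3 genes. The higher members were 8 of 10 for class II presentation (5 with all arrays), 7 of 34 for resident macrophages (4) and 11 of 24 for chemokine receptors (7). They were 9 of 28 for the paired receptors (3) and 8 of 24 for stress (3). The lower members were 10 for resident macrophages (5 with all arrays) and 4 of 31 for the C-type lectins (1).

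**Figure D5:**
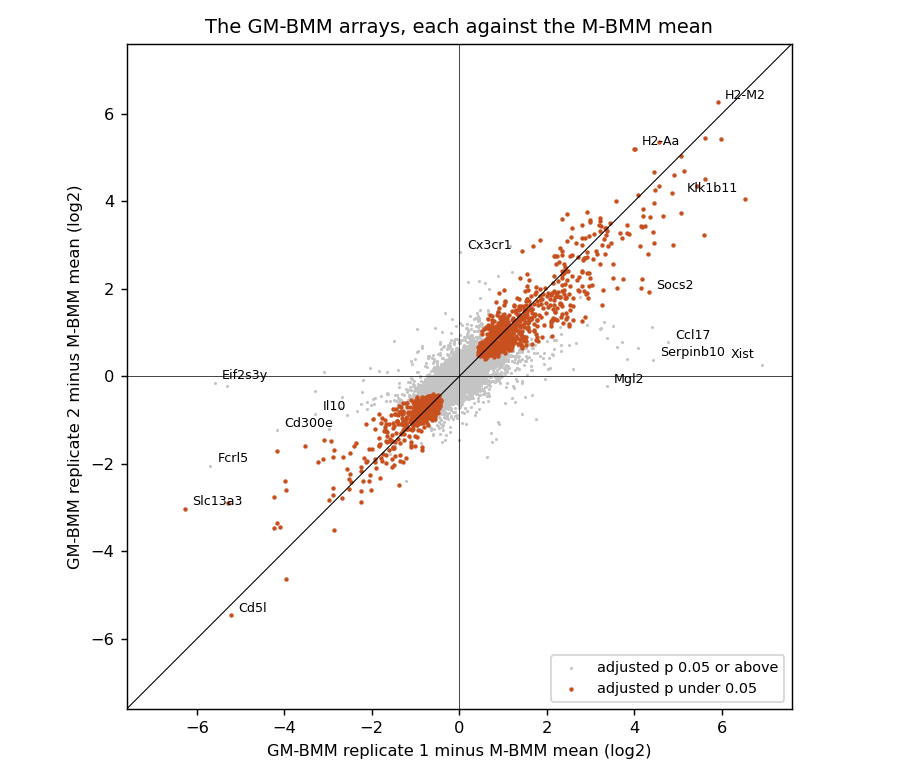
GM-BMM replicate 1 (x axis) and replicate 2 (y axis), each minus the M-BMM mean (log2), for all genes, with the genes that passed the test coloured and the diagonal marking equal differences. Genes such as Cd5l and H2-M2 lie near the diagonal, and Xist, Eif2s3y, Ccl17 and Mgl2 lie far off it.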

How the data were processed

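RNA of the 6 sorted samples was hybridised to 1-colour expression arrays. The values used are the authors' deposited log2 intensities, made with RMA in Affymetrix Expression Console 1.1, per the submitters' processing notes; other steps upstream are not given in the sources used here. The table held 35556 probe sets, of which the platform annotation pairs 21789 with 1 gene, 1621 with several and 12146 with none; only those with 1 gene were used. Of the 19938 genes, 19856 had their gene ID in the RefSeq table, and no symbol changed. Array annotation can be old, and array number, at 2 per group, limits the precision.

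A linear model with 3 groups was fitted to all genes with limma 3.58.1 (R 4.3.3), with moderated variances, 3 residual degrees of freedom and Benjamini-Hochberg adjustment over all genes. No filter on low values was used. Adjusted p-values come from this fit, or from the same model refitted without an array where the text says so. On simulated data with 200 changed genes among 19938, the fit found 0% at 1.5-fold, 74% at 2-fold and 99.5% at 4-fold. Each simulation used the same fold for all changed genes and the same spread in every group. It also changed fewer genes than the 1235 that passed here. These shares therefore do not say how many real differences of a given size were found.

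The comparison and the gene lists were chosen with earlier results of these data known. Named genes are the 12 with the largest fold in each direction that passed, did not overlap between the populations and had no provisional or microRNA name; all members of the sort gate and growth factor receptor lists; up to 3 per list and direction that passed; and the sex-linked genes. Any other gene in the text was chosen after its values were seen. Each array was left out in turn, and grouping, variance model, normalisation, filter and probe set choice were varied. Where an array was left out, the lone sample of that group was assumed to vary like the other groups. Promoter and microRNA sequences come from RefSeq tables (GRCm38.p6), matched by symbol: 114 of the 147 named genes had a promoter, and some had several.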

Additional observations from a re-analysis of the deposited data

How the results depend on the processing

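With all arrays 722 genes were higher and 513 lower. Leaving out single arrays gave 217 to 804 higher and 92 to 543 lower genes, the fewest higher without M-BMM replicate 2 and the fewest lower without M-BMM replicate 1. An ordinary linear model per gene, with no moderation of the variance, left 6 higher and 2 lower genes, with 3075 genes at an unadjusted p under 0.05 against 3834 with moderation. With every probe set tested the counts were 407 and 208, and with a covariate for the average level of 3 Y-linked genes they were 597 and 302. The causes were not tested. The other settings, including cyclic loess, median centring, a filter on low values and other choices of probe set, stayed within 1.5 times of both counts, and no gene that passed in any setting had passed in the opposite direction with all arrays. With the replicate number as a block the counts were 715 and 461, of which 668 and 416 were shared. The labels do not say that a number marks a shared culture, and the difference between arrays 1 and 2 correlated across genes at 0.026 between GM-BMM and M-BMM, 0.024 between GM-BMDC and GM-BMM and -0.132 between GM-BMDC and M-BMM, so the numbers were not taken to pair the samples across the groups. In both GM-CSF groups, however, replicate 1 had little Y-linked RNA and replicate 2 had more (Eif2s3y 3.66 and 9.10 in GM-BMM, 3.94 and 8.80 in GM-BMDC). Of the 147 named genes 85 kept their side of the threshold without M-BMM replicate 1, 84 without M-BMM replicate 2, 129 without GM-BMM replicate 1 and 12 with no moderation. None of the simulated 1.5-fold changes was found, although some real differences of that size passed.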

Other observations

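The array also holds probe sets that the annotation pairs with no gene or with several genes, which enter no comparison above. When all 35556 probe sets were tested together, 132 of the 12146 probe sets with no gene were higher in GM-BMM and 50 were lower (1.5% in all), with log2 differences from -3.27 to 4.57. Of the 1621 probe sets with several genes 12 were higher and 10 were lower (1.36%). Of the 21789 probe sets with 1 gene 436 were higher and 275 were lower (3.26%).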
